A study of Homo sapiens with 12 samples.

Results

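The 6 control libraries of MIO-M1 cells in a 12-library RNA sequencing series are described here: what the untargeted cells expressed, and where the controls of 1 experiment differed from those of the other. The members were chosen by their labels alone, as the 3 control siRNA libraries that accompany the MAPK14 knockdown (MAPK14-set controls) and the 3 that accompany the joint knockdown of MAPK8 and MAPK9 (MAPK8/9-set controls), with the 16752 genes that both deposited tables list joined on gene ID. MIO-M1 is a spontaneously immortalised human Müller glial cell line, so all libraries derive from 1 line. The labels give both sets the same genotype (WT), the same treatment (a control siRNA) and the same harvest on day 3, and they give the 2 sets different batch entries, so that set and batch cannot be told apart. They do not say whether both sets received the same control siRNA, nor whether the libraries of a set were grown as separate cultures. The p-values therefore reflect only how these libraries vary. The other 6 libraries, 3 siMAPK14 and 3 siMAPK8_9 libraries of the same day and batch entry as their controls, enter only where levels are set side by side. Differences are log2 fold changes of the MAPK14-set controls over the MAPK8/9-set controls with their standard error and adjusted p from edgeR. CPM are counts scaled to library size after TMM normalisation, and TPM are per-length levels as deposited for each experiment.

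Müller glia span the retina from its inner to its outer surface. They recycle glutamate through glutamine synthetase (GLUL), buffer potassium and water, carry visual cycle proteins, and keep some genes of retinal progenitors such as SOX2, SOX9 and PAX6 active in the adult eye. In culture and after injury they raise intermediate filaments such as vimentin (VIM), a change called gliosis. The kinases p38-alpha (MAPK14), JNK1 (MAPK8) and JNK2 (MAPK9) are the stress-activated branch of the MAP kinase family: metabolic, oxidative and inflammatory stress activate them, and AP-1 and cytokine genes are among the genes they control. The state of the control cells in these same stress programmes is therefore the level that each knockdown is measured from.

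The control libraries were deep and alike in size, with 31040067 to 31510571 counts each. Any 2 libraries of the same set differed by a median of 0.055 to 0.077 on the log2 scale, and 2 libraries of different sets by 0.265 to 0.289. Spearman's rank correlation of TPM across genes was 0.994 to 0.995 within a set and 0.979 to 0.981 between sets; genes are not independent replicates, so no p is given. The biological coefficient of variation, edgeR's measure of spread beyond counting error, was 3.90% within the MAPK14 set and 2.80% within the MAPK8/9 set. The axis of largest variance separated the 2 sets and held 85.6% of the variance. The next axis, with 4.43%, spread the MAPK14-set libraries, with scores of 16.4, -1.56 and -14.1 for replicates 1, 2 and 3. Replicate 1 was the lowest MAPK14-set library for 419 of the 733 genes (57.2%) that were higher there by 2-fold or more. It was the highest for 291 of the 654 genes (44.5%) that were lower there by 2-fold or more. The same shares over all tested genes were not counted.

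The shared baseline was broad and stable in rank. A level of at least 1 TPM in all 6 libraries was reached by 11546 genes, 10 TPM by 7738, 100 TPM by 1327 and 1000 TPM by 117. The 20 genes with the highest TPM took 15.7% of all TPM in the MAPK14 set and 15.8% in the MAPK8/9 set, and 17 of these 20, 95 of the highest 100 and 896 of the highest 1000 were the same genes in both sets. Actin-binding thymosins (TMSB4X, TMSB10), the light chain of HLA class I (B2M), the glycolytic enzyme GAPDH, the calcium-binding S100A6, beta-actin (ACTB), the ferritin chains FTH1 and FTL, the metal-binding MT2A, VIM, the collagen chain COL1A2, the matrix protein TGFBI and mitochondrial transcripts such as MT-COX1 stood among the 20 highest. TMSB4X averaged 18908 ± 538 TPM in MAPK14-set controls and 15939 ± 489 TPM in MAPK8/9-set controls, COL1A2 4683 ± 347 and 5575 ± 94.2 TPM, and TGFBI 4419 ± 182 and 5099 ± 123 TPM (SD, n = 3 each). A further 136 genes were at 1 TPM or more in all 3 MAPK14-set controls and under it in all 3 MAPK8/9-set controls, and 170 genes were the other way round.

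Part of the Müller glia marker list was well expressed and part was at or near 0. Of 24 marker symbols 22 were in both tables, and 18 of them reached 1 TPM in all 6 libraries. VIM ranked 14th in both sets, with 5536, 5463 and 5622 TPM in MAPK14-set controls and 5206, 5297 and 5422 TPM in MAPK8/9-set controls. CAV1, the coat protein of caveolae, had 463, 438 and 424 TPM in MAPK14-set controls, all below the 830.1, 846 and 847 TPM of MAPK8/9-set controls. GLUL had 58.6, 57.1 and 59.2 TPM in MAPK14-set controls and 63.0, 60.7 and 61.0 TPM in MAPK8/9-set controls. SOX9, a transcription factor of Müller glia and progenitors, had 33.7, 38.7 and 39.6 TPM in MAPK14-set controls and 50.2, 48.1 and 48.6 TPM in MAPK8/9-set controls. The glutamate transporter SLC1A3 averaged 27.6 ± 1.78 and 41.7 ± 1.99 TPM, SOX2 7.56 ± 0.969 and 16.6 ± 0.978 TPM, and PAX6 8.27 ± 0.532 and 11.4 ± 0.61 TPM in MAPK14-set and MAPK8/9-set controls (SD, n = 3 each). By contrast RLBP1, the retinaldehyde-binding protein of mature Müller glia, was at 0 in all 6 libraries, the potassium channel KCNJ10 was at most 0.03 TPM, and the astrocyte filament GFAP was at most 0.64 TPM. AQP4 and ABCA8 are not analysed here. In bulk RNA, fewer cells of a type and less RNA per cell cannot be told apart.

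**Figure D1:**
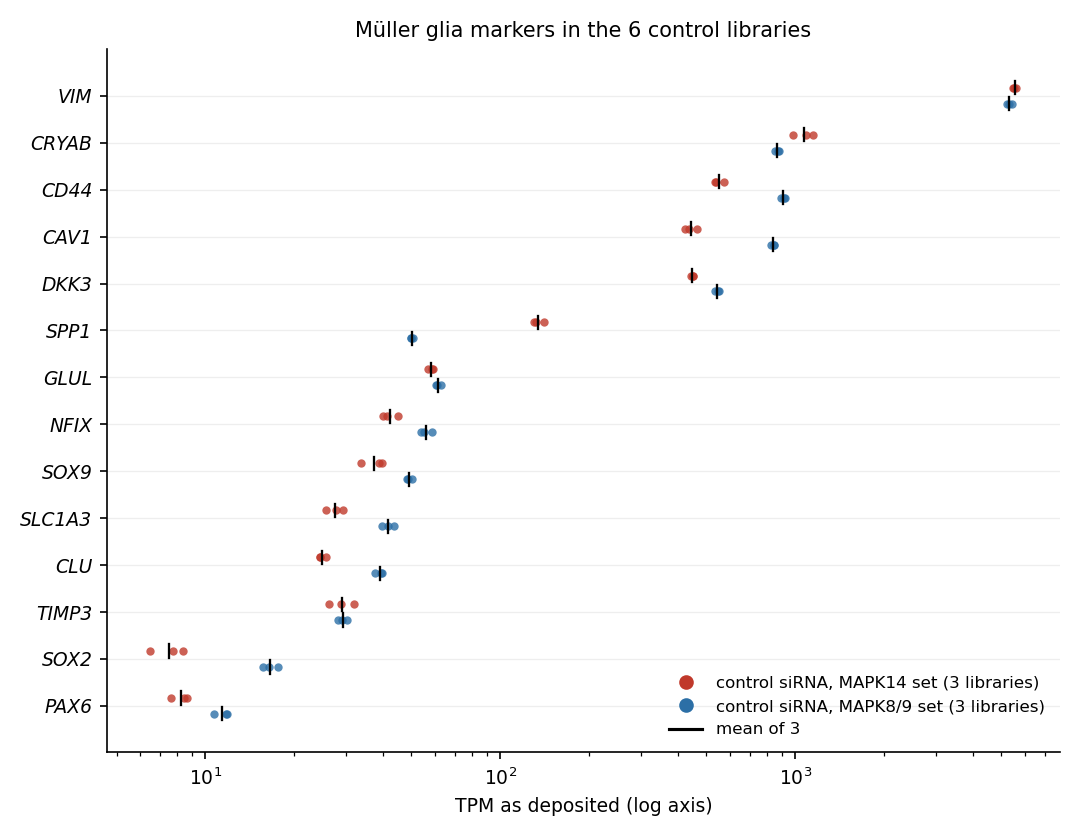
Levels of 14 Müller glia markers in the 6 control libraries, in TPM on a log axis; each point is a library and each bar the mean of 3. VIM lies between 5206 and 5622 TPM, CAV1, CD44, SOX9, SLC1A3, SOX2 and PAX6 lie lower in the MAPK14 set, and SPP1 lies higher there.

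Photoreceptor markers were near 0, other retinal lists were partly expressed, and mesenchymal markers were high. None of 5 photoreceptor genes listed in both tables reached 1 TPM in all 6 libraries, and the summed level of the list was 0.14 to 0.33 TPM in MAPK14-set controls and 0.34 to 0.41 TPM in MAPK8/9-set controls. Of 17 inner retinal neuron symbols 14 were in both tables, and 4 of them reached 1 TPM in all 6 libraries. That list summed to 66.4 to 66.9 TPM in MAPK14-set controls and 77.5 to 79.1 TPM in MAPK8/9-set controls, most of it RBPMS and PRKCA. The retinal pigment epithelium list summed to 9.35 to 9.92 TPM in MAPK14-set controls and 7.73 to 8.26 TPM in MAPK8/9-set controls. Of 7 astrocyte symbols 6 were in both tables. Of these 3 reached 1 TPM, with sums of 225 to 247 TPM in MAPK14-set controls and 334 to 365 TPM in MAPK8/9-set controls, nearly all of it the gap junction gene GJA1. Of 10 immune symbols 5 were in both tables. Only 1 of the 5 reached that level, CSF1R, while the pan-leukocyte gene PTPRC was at most 0.18 TPM. In contrast 15 of 16 mesenchymal markers reached it, with summed levels of 3071 to 3278 TPM in MAPK14-set controls and 3906 to 4010 TPM in MAPK8/9-set controls, among them SPARC, THY1, FAP and TWIST1. Most of the mesenchymal sum was SPARC, with 2200 ± 69.4 and 2887 ± 53.6 TPM in MAPK14-set and MAPK8/9-set controls (SD, n = 3 each). Its members went both ways: of 16 tested on counts, 9 were lower and 4 higher in the MAPK14 set. All 4 were higher by at least 2-fold, and 1 of the 9 was lower by as much. The list was called in 81.25%, beside 73.6% of all tested genes (36.3% lower and 37.3% higher). By at least 2-fold, 5.47% of all tested genes were higher and 4.88% lower. LUM averaged 113 and 46.7 TPM and POSTN 44.0 and 13.2 TPM in MAPK14-set and MAPK8/9-set controls. VIM itself is also made by mesenchymal cells. In MAPK14-set controls THY1 averaged 165 ± 9.95 TPM, FAP 82.5 ± 2.24 TPM and TWIST1 58.4 ± 4.77 TPM, and in MAPK8/9-set controls they averaged 225 ± 2.88, 114.9 ± 2.24 and 108 ± 1.18 TPM (SD, n = 3 each). Of 12 epithelial markers 3 reached 1 TPM in all 6 libraries, with summed levels of 55.9 to 60.6 TPM in MAPK14-set controls and 19.0 to 21.3 TPM in MAPK8/9-set controls; EPCAM and CDH1 were at most 0.22 and 0.01 TPM. Most of that sum was KRT18, a keratin of simple epithelia, with 46.5 ± 2.02 and 14.5 ± 1.06 TPM in MAPK14-set and MAPK8/9-set controls (SD, n = 3 each). The part of these markers in the set differences given next was not tested.

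The 2 sets differed in most genes by a small amount and in fewer by 2-fold or more. Of 13409 genes tested, 9872 passed an adjusted p of 0.05 (73.6%), 5003 of them higher (37.3%) and 4869 lower (36.3%) in the MAPK14 set, and the 2 sets of libraries did not overlap for 75.9% of genes. The median log2 fold change over all genes was 0.01 and the median of its size 0.31. Within 1.2-fold of each other lay 44.0% of genes, within 1.5-fold 75.4%, and within 2-fold 89.6%. Past the threshold and at least 2-fold apart were 1387 genes (10.3%), 733 higher (5.47%) and 654 lower (4.88%), and 292 of them were at least 4-fold apart. When the 6 knockdown libraries joined the fit and its estimate of spread, 3045 of 13648 genes tested passed (1539 higher and 1506 lower). At least 2-fold apart were 841 of them.

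**Figure D2:**
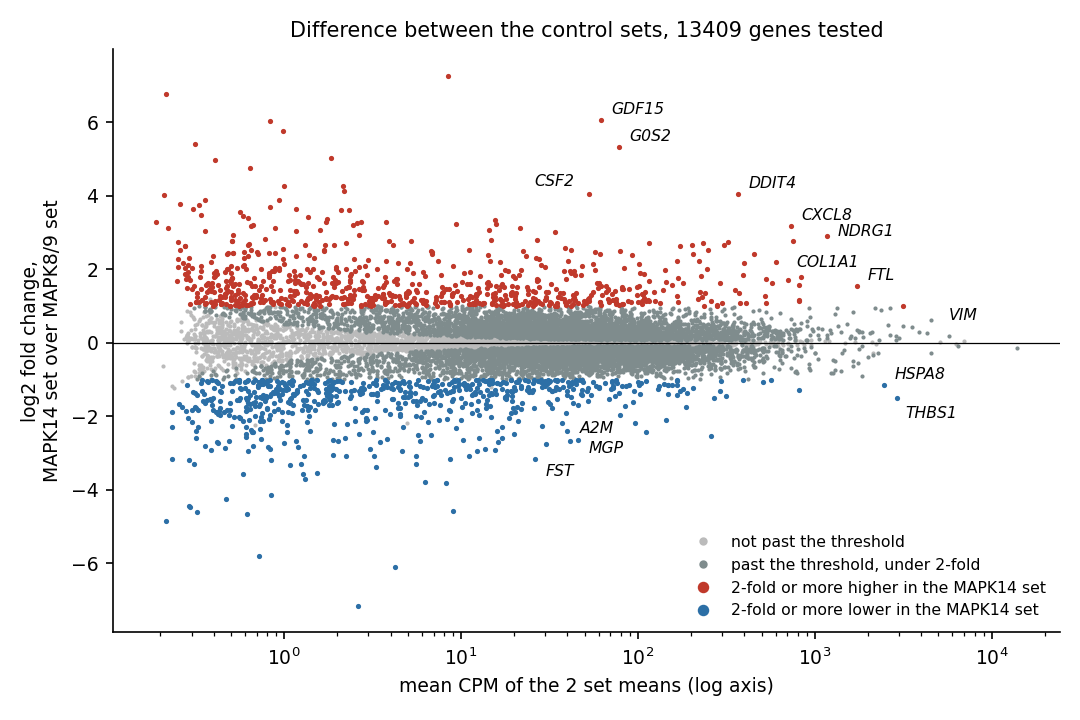
Log2 fold change of MAPK14-set over MAPK8/9-set controls against mean CPM (log axis) for the 13409 genes tested; each point is a gene. Most points lie within 2-fold, and the labelled genes GDF15, G0S2, CSF2 and DDIT4 stand highest among well expressed genes while FST, MGP and A2M stand low.

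The 10 genes furthest above in the MAPK14-set controls included 4 secreted signals, GDF15, CSF2, CXCL8 and CXCL6, and regulators of lipid storage and of mTORC1. By the rule of at least 10 CPM on average and no overlap, GDF15 (gene ID 9518; GRCh38.p14 chromosome 19, from 18386158 to 18389176), a secreted TGF-beta family cytokine of cell stress, came first. It had 109.6, 128 and 129.7 CPM in MAPK14-set controls and 1.64, 2.33 and 1.52 CPM in MAPK8/9-set controls. All 3 MAPK14-set values stood far above the other set, with a log2 fold change of 6.06 ± 0.13 (66.9-fold, adjusted p = 1.36e-09). G0S2 (gene ID 50486; chromosome 1, from 209675412 to 209676390), an inhibitor of the lipase that breaks down stored fat, had 128, 158 and 173 CPM in MAPK14-set controls and 4.19, 3.90 and 3.32 CPM in MAPK8/9-set controls (5.33 ± 0.20, adjusted p = 1.28e-05). DDIT4 (gene ID 54541; chromosome 10, from 72273924 to 72276036), an inhibitor of mTORC1, had 624, 702 and 752 CPM in MAPK14-set controls and 43.1, 41.4 and 41.2 CPM in MAPK8/9-set controls (4.05 ± 0.07, 16.5-fold, adjusted p = 5.33e-10). Every MAPK14-set library was above every MAPK8/9-set library for both genes, as the rule required.

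CSF2, the granulocyte-macrophage colony-stimulating factor (gene ID 1437; chromosome 5, from 132073789 to 132076170), had 89.3, 110.1 and 98.6 CPM in MAPK14-set controls and 6.14, 6.11 and 5.75 CPM in MAPK8/9-set controls (4.05 ± 0.09, adjusted p = 1.41e-11). CXCL8 (gene ID 3576; chromosome 4, from 73740569 to 73743716), a neutrophil attractant, had 924, 1451 and 1566 CPM in MAPK14-set controls and 140.4, 144 and 153 CPM in MAPK8/9-set controls (3.17 ± 0.25, 9.01-fold, adjusted p = 0.000328). Its MAPK14-set replicate 1 was the lowest of that set, and still above all 3 MAPK8/9-set libraries, as the rule of no overlap required. The related CXCL6 averaged 28.5 ± 1.18 CPM in MAPK14-set controls and 3.05 ± 0.311 CPM in MAPK8/9-set controls (SD, n = 3 each). The remaining 4 of the 10 were ARG2 (mitochondrial arginase), THBD (thrombomodulin), PLIN2 (a lipid droplet coat protein) and NR1D1 (the clock repressor REV-ERB-alpha), with log2 fold changes of 3.35 ± 0.20, 3.12 ± 0.11, 3.08 ± 0.09 and 3.03 ± 0.07.

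**Figure D3:**
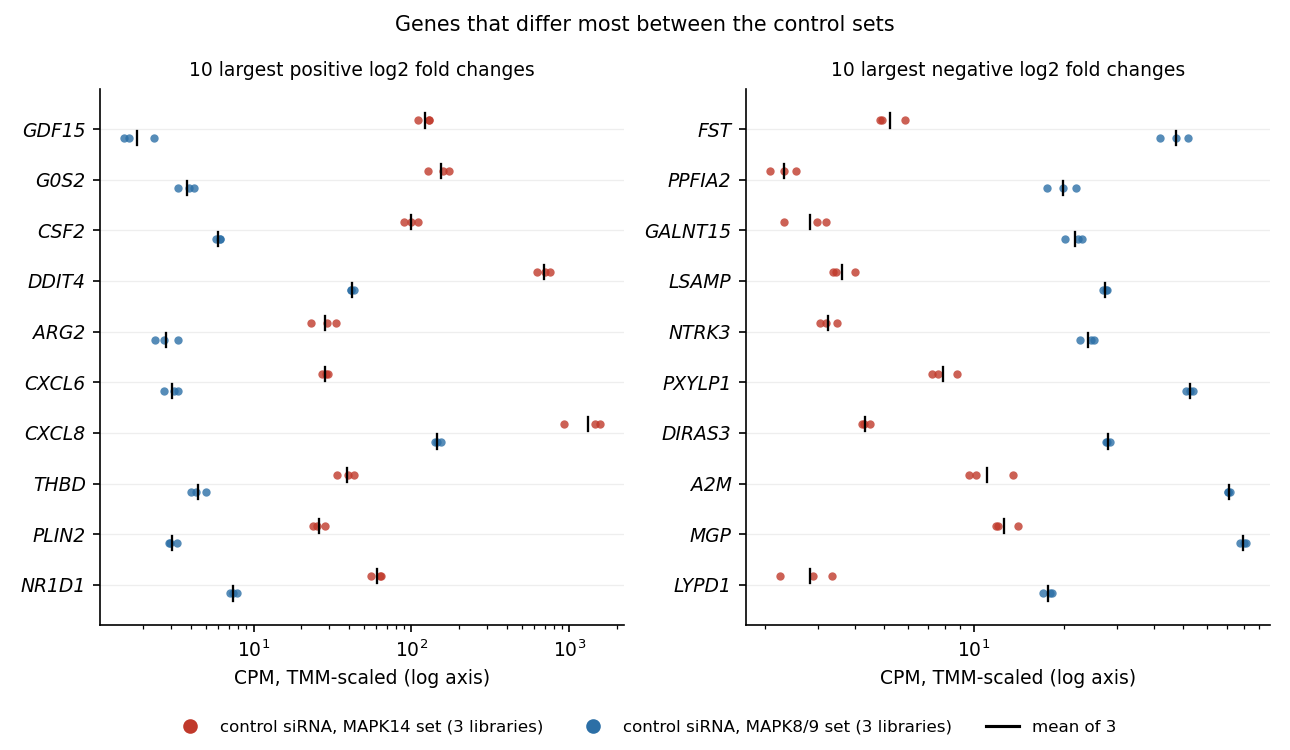
CPM (log axis) in each control library for the 10 genes with the highest and the 10 with the lowest log2 fold change among genes of at least 10 CPM on average; points are libraries and bars the mean of 3. The 2 sets lie apart for all 20 genes, as the rule required; GDF15 lies at 109.6 to 129.7 CPM in the MAPK14 set and at 1.52 to 2.33 CPM in the MAPK8/9 set.

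Promoters of 4 genes higher in the MAPK14 set are printed because they hold many or rare matches to short motifs of stress-responsive promoters: the metallothioneins MT2A and MT1X, ARG2, and DUSP1, which encodes a phosphatase that inactivates p38 and JNK. Each is the 250 bases before the start of the gene, 5′ to 3′ on the gene's strand, from RefSeq with GRCh38.p14 coordinates. They are chr16:56608334-56608583 (plus strand) for MT2A, chr16:56682220-56682469 (plus) for MT1X, chr14:67619670-67619919 (plus) for ARG2 and chr5:172771196-172771445 (minus) for DUSP1. Capitals mark matches, on either strand, to TGCNCNC (the core of the metal response element), TGACGTCA (the cAMP response element, which CREB and ATF proteins bind) or TGANTCA (the AP-1 site), and no match overlapped another in these windows.
MT2A: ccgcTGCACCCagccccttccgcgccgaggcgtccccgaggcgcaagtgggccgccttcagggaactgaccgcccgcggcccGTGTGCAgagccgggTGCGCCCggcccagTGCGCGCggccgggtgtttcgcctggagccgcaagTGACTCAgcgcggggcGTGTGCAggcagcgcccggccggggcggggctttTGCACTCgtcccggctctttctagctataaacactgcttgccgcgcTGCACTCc
MT1X: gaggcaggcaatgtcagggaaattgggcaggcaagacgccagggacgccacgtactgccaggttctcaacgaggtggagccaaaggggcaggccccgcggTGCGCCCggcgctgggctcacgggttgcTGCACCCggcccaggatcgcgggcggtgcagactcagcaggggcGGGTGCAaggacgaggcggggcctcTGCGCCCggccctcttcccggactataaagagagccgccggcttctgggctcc
ARG2: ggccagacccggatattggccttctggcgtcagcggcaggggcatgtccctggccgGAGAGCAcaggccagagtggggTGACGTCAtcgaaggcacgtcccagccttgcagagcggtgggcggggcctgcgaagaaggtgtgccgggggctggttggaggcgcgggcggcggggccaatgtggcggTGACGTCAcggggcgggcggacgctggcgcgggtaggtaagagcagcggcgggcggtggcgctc
DUSP1: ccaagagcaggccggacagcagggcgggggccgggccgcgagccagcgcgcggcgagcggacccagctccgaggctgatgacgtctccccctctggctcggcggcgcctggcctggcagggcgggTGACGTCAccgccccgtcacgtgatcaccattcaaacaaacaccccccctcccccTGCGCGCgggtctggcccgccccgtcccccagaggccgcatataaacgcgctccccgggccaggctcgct
MT2A held 7 metal response element cores and 1 AP-1 site, MT1X 4 cores, ARG2 2 cAMP response elements and 1 core, and DUSP1 1 cAMP response element and 1 core. Among 35116 RefSeq promoter windows of the same length, 49.1% held at least 1 such core and 1.77% at least 4, 1.65% held a cAMP response element and 0.0541% at least 2, and 6.57% held an AP-1 site. These are matches of letters in the windows, not sites shown to be bound, and the 4 windows were chosen for their matches. Of the 9 of the 10 highest genes with a window, 5 held a core, 1 a cAMP response element and 1 an AP-1 site, and GDF15, G0S2, CSF2 and PLIN2 held none of the 3 motifs.

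The metallothionein list was higher in the MAPK14 set. It holds genes of metallothioneins, small proteins that bind zinc and copper, and also the zinc transporter gene SLC30A1. All 7 tested members of this list passed and were higher by at least 2-fold, with a median log2 fold change of 2.24 against 0.01 for all genes. Among all tested genes 37.3% were higher and 5.47% higher by 2-fold. MT2A (gene ID 4502; chromosome 16, from 56608584 to 56609497) had 469, 544 and 553 CPM in MAPK14-set controls and 176, 199 and 198 CPM in MAPK8/9-set controls (1.45 ± 0.08, adjusted p = 1.43e-05). MT1X (gene ID 4501; chromosome 16, from 56682470 to 56684196) had 83.7, 111 and 116 CPM in MAPK14-set controls and 18.0, 19.5 and 20.9 CPM in MAPK8/9-set controls (2.41 ± 0.17, adjusted p = 0.000185). Replicate 1 was the lowest MAPK14-set library for both, with no overlap of the sets. Effective length (from count over FPKM) was only 105 bases for MT2A. Over 3657 genes it was longer in the MAPK14 set by a median of 27.1 bases. In TPM, which are per length, MT2A averaged 7765 ± 370 and 3618 ± 69.7 and MT1X 1501 ± 195 and 360 ± 6.64 in MAPK14-set and MAPK8/9-set controls (SD, n = 3 each). With the length trend removed the list median was 2.00. The part of length in these differences was not tested. The MT1 genes are near-identical copies next to each other, so how counts divide among them is uncertain. MT1E averaged 66.1 ± 8.66 CPM in MAPK14-set controls and 11.0 ± 0.992 CPM in MAPK8/9-set controls (SD, n = 3 each).

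Genes of the unfolded protein response and the integrated stress response, which cells use against misfolded protein and amino acid shortage, were higher as a group. Of 28 tested, 26 were higher and 1 lower in the MAPK14 set, 13 of them higher by at least 2-fold, with a median of 0.90. Among all tested genes 37.3% were higher, 36.3% lower and 5.47% higher by at least 2-fold. DDIT3 (gene ID 1649; chromosome 12, from 57516588 to 57520517), the transcription factor CHOP, had 142, 164 and 160.0 CPM in MAPK14-set controls and 30.0, 30.0 and 29.8 CPM in MAPK8/9-set controls. That is a log2 fold change of 2.38 ± 0.05 (adjusted p = 1.79e-16) between sets that did not overlap. TRIB3, a pseudokinase downstream of ATF4 and CHOP (gene ID 57761; chromosome 20, from 380760 to 397559), had 319, 354 and 363 CPM in MAPK14-set controls and 63.1, 65.4 and 66.3 CPM in MAPK8/9-set controls (2.41 ± 0.05, adjusted p = 3.17e-17). PHGDH, the entry enzyme of serine synthesis, was higher by 1.13 ± 0.04. The chaperones of the endoplasmic reticulum differed less: HSPA5 averaged 3079 ± 149 CPM in MAPK14-set controls and 1669 ± 36.0 CPM in MAPK8/9-set controls, and CALR 2229.7 ± 59.7 and 1860.1 ± 34.2 CPM (SD, n = 3 each).

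Targets of NF-kB and cytokine genes were mostly higher as well, with 17 of 22 tested higher and 2 lower, 14 of them higher by at least 2-fold, and a median of 1.37. The list was called in 86.4%, against 73.6% of all tested genes (37.3% higher, and 5.47% higher by 2-fold). Interleukin 6 (IL6) averaged 36.6 ± 1.38 CPM in MAPK14-set controls and 16 ± 0.975 CPM in MAPK8/9-set controls, and the adhesion molecule ICAM1 48.5 ± 3.12 and 15.9 ± 0.925 CPM (SD, n = 3 each). IL1A, an alarmin, stood at 3.58 ± 0.356 CPM in MAPK14-set controls and at 0.105 ± 0.0480 CPM in MAPK8/9-set controls (SD, n = 3 each), where 3 counts equal about 0.095 CPM. SOD2, the mitochondrial superoxide dismutase, did not pass: it had 572, 618 and 645 CPM in MAPK14-set controls and 602, 519 and 555 CPM in MAPK8/9-set controls, and the sets overlapped (adjusted p = 0.0959). SOD2 passed without MAPK14-set replicate 1 (log2 fold change 0.18), without MAPK8/9-set replicate 1 (0.19), in DESeq2 (0.13) and with the length or GC trend removed (0.19 and 0.23).

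NRF2 targets, the antioxidant and iron-handling genes, were higher in 18 of 19 tested and lower in 0, 12 of them by at least 2-fold, with a median of 1.15. For comparison, 37.3% of all tested genes were higher and 5.47% higher by 2-fold. FTL (gene ID 2512; chromosome 19, from 48965309 to 48966879), the light chain of ferritin, had 2591, 2619 and 2554 CPM in MAPK14-set controls and 881, 916 and 874 CPM in MAPK8/9-set controls. The difference, 1.54 ± 0.03 (2.91-fold, adjusted p = 1.88e-20), was many times the spread within either set. The heavy chain FTH1 averaged 4204 ± 153 CPM in MAPK14-set controls and 2086 ± 33.3 CPM in MAPK8/9-set controls, thioredoxin reductase TXNRD1 1295 ± 61.1 and 376 ± 6.46 CPM, NQO1 1119 ± 14.2 and 506 ± 6.64 CPM, and heme oxygenase HMOX1 1137 ± 124 and 503 ± 37.7 CPM (SD, n = 3 each).

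Immediate early and AP-1 genes included 22 of 29 tested that were higher, 14 of them by at least 2-fold, and 4 that were lower, with a median of 0.88. Calls covered 89.7% of this list, against 73.6% of all tested genes (37.3% higher, and 5.47% higher by 2-fold). DUSP1 (gene ID 1843; chromosome 5, from 172768096 to 172771195) had 333, 372 and 349 CPM in MAPK14-set controls and 54.4, 56.2 and 56.2 CPM in MAPK8/9-set controls (2.66 ± 0.04, 6.32-fold, adjusted p = 2.55e-21). The AP-1 subunits JUND, JUN, FOSL1 and FOSL2 were higher by 1.37 ± 0.05, 0.88 ± 0.05, 0.74 ± 0.05 and 0.61 ± 0.03. CCN1, a matrix-associated protein that YAP also controls, went the other way, with 648, 542 and 497 CPM in MAPK14-set controls and 915, 988 and 1025 CPM in MAPK8/9-set controls (log2 fold change -0.80 ± 0.12, adjusted p = 0.00324).

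Genes induced by low oxygen and enzymes of glycolysis were mostly higher. Of 21 hypoxia targets tested 19 were higher and 0 lower, 10 by at least 2-fold (median 0.69), and of 19 glycolysis genes 16 were higher and 1 lower, 4 of the 16 by at least 2-fold (median 0.46). Hypoxia targets were called in 90.5% and glycolysis genes in 89.5%, against 73.6% of all tested genes (37.3% higher, and 5.47% higher by 2-fold). NDRG1 (gene ID 10397; chromosome 8, from 133237175 to 133297252), a stress- and hypoxia-induced gene, had 1762, 2062 and 2417 CPM in MAPK14-set controls and 291, 268 and 278 CPM in MAPK8/9-set controls (2.90 ± 0.14, adjusted p = 4.97e-05). The lowest MAPK14-set library, replicate 1, was well above the highest MAPK8/9-set library. The vasodilator peptide ADM averaged 397 ± 40.8 CPM in MAPK14-set controls and 98.5 ± 2.45 CPM in MAPK8/9-set controls, the lipase inhibitor ANGPTL4 869 ± 118 and 279.7 ± 6.06 CPM, and MXI1, a MYC antagonist, 34.9 ± 1.82 and 8.90 ± 0.400 CPM (SD, n = 3 each). ALDOA, GAPDH, ENO1 and PKM, enzymes of glycolysis, were higher by 0.96 ± 0.03, 0.61 ± 0.03, 0.28 ± 0.03 and 0.28 ± 0.03, and the lactate exporter SLC16A3 by 0.57 ± 0.03. With the knockdown libraries in the fit, 12 hypoxia targets and 12 glycolysis genes were higher and 0 lower, beside 1539 higher and 1506 lower of 13648 genes tested.

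**Figure D4:**
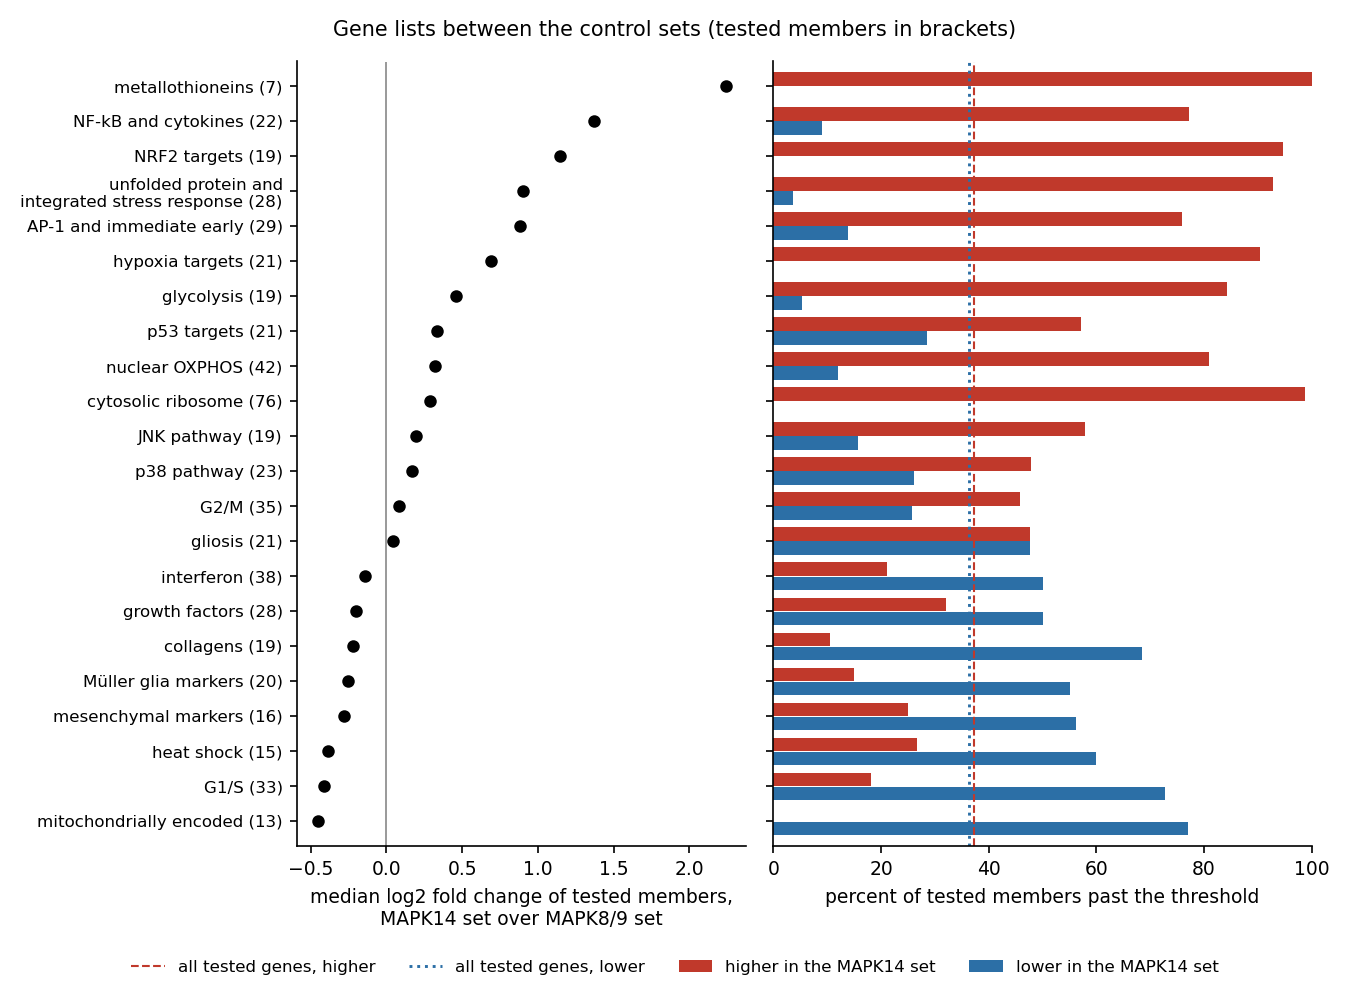
Left, the median log2 fold change of the tested members of 22 gene lists; right, the percent of tested members that were higher (red) or lower (blue) in the MAPK14 set, with lines at 37.3% and 36.3% for all tested genes. Metallothioneins, cytokines, NRF2, stress response, AP-1 and hypoxia lists lie to the right, and heat shock, G1/S and mitochondrially encoded genes to the left.

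The 10 lowest genes by the same rule included secreted, matrix and membrane proteins. FST (gene ID 10468; chromosome 5, from 53480629 to 53487134), follistatin, which binds activin, had 4.94, 5.88 and 4.85 CPM in MAPK14-set controls and 42.1, 47.6 and 52.1 CPM in MAPK8/9-set controls (-3.18 ± 0.10, adjusted p = 1.47e-11). NTRK3, the receptor of neurotrophin 3 (gene ID 4916; chromosome 15, from 87859751 to 88256739), had 3.07, 3.21 and 3.48 CPM in MAPK14-set controls and 22.6, 25.2 and 24.6 CPM in MAPK8/9-set controls (-2.89 ± 0.08, adjusted p = 7.38e-18). MGP (gene ID 4256; chromosome 12, from 14880864 to 14885854), an inhibitor of matrix calcification, had 14, 11.8 and 12.0 CPM in MAPK14-set controls and 77.6, 81.2 and 80 CPM in MAPK8/9-set controls (-2.66 ± 0.05, adjusted p = 4.62e-20). The sets lay apart for all 3, as the rule required. The protease inhibitor A2M averaged 11.1 ± 2.14 CPM in MAPK14-set controls and 71.1 ± 0.822 CPM in MAPK8/9-set controls, and the neural adhesion protein LSAMP 3.61 ± 0.343 and 27.4 ± 0.417 CPM (SD, n = 3 each). The others were PPFIA2, GALNT15, PXYLP1, the Ras-related DIRAS3 and LYPD1, with log2 fold changes of -3.09, -2.94, -2.75, -2.69 and -2.64.

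Heat shock genes were more often lower than higher in the MAPK14 set. Of 15 tested 9 were lower and 4 higher in the MAPK14 set, 2 of the 9 by at least 2-fold, with a median of -0.39; 36.3% of all genes were lower and 4.88% by 2-fold. HSPA8 (gene ID 3312; chromosome 11, from 123057489 to 123062462), the constitutive HSC70 chaperone, had 1594, 1507 and 1476 CPM in MAPK14-set controls and 3388, 3438 and 3407 CPM in MAPK8/9-set controls (-1.16 ± 0.03, adjusted p = 2.95e-18). The HSP110-family gene HSPA4L fell by 1.53 ± 0.05, the co-chaperone DNAJA1 by 0.70 ± 0.03 and HSP90AA1 by 0.55 ± 0.04 on the log2 scale. HSPB1, the small heat shock protein downstream of p38, was higher, with 319 ± 14.1 CPM in MAPK14-set controls and 197 ± 3.45 CPM in MAPK8/9-set controls (SD, n = 3 each).

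Genes of S-phase entry and DNA replication were mostly lower in the MAPK14 set, beside 36.3% lower and 37.3% higher among all tested genes. Genes of mitosis passed the threshold in 71.4%, near the 73.6% of all genes. Of 33 G1/S genes tested 24 were lower and 6 higher (median -0.41), whereas of 35 G2/M genes 9 were lower and 16 higher (median 0.08). In both lists together 1 gene, CCNE2, was at least 2-fold apart. CCNE2, a cyclin of S-phase entry, averaged 18.3 ± 1.5 CPM in MAPK14-set controls and 40.6 ± 1.88 CPM in MAPK8/9-set controls, the checkpoint protein CLSPN 52.2 ± 2.73 and 92.4 ± 4.00 CPM, and the polymerase clamp PCNA 196 ± 8.77 and 265 ± 5.57 CPM (SD, n = 3 each). RRM2, a subunit of ribonucleotide reductase, was among the 6 that were higher (0.24 ± 0.03). UBE2C, which serves the anaphase-promoting complex, averaged 223 ± 4.36 CPM in MAPK14-set controls and 134 ± 2.70 CPM in MAPK8/9-set controls, and the kinase AURKB 67.6 ± 1.44 and 46.8 ± 0.235 CPM (SD, n = 3 each). With the knockdown libraries in the fit 13 G1/S genes were lower and 1 higher, and 2 G2/M genes lower and 3 higher. The same fit had 1506 lower and 1539 higher among all 13648 genes tested.

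Growth factor, NOTCH and WNT genes included members in both directions, as did all tested genes, of which 36.3% were lower and 37.3% higher. Of 28 growth factor genes 14 were lower and 9 higher (median -0.20), and of 26 NOTCH and WNT genes 15 were lower and 6 higher (median -0.18). EGFR (gene ID 1956; chromosome 7, from 55019017 to 55211628), the receptor of epidermal growth factor, had 153, 152 and 152 CPM in MAPK14-set controls and 298, 298 and 301 CPM in MAPK8/9-set controls; the sets lay far apart against their spread (-0.97 ± 0.03, adjusted p = 3.46e-17). NRG1, a ligand of ERBB receptors, fell by 1.61 ± 0.04, WNT5B by 1.71 ± 0.06 and the WNT antagonist SFRP1 by 1.28 ± 0.06 on the log2 scale, while the lymphatic growth factor VEGFC was higher by 1.05 ± 0.04. With the knockdown libraries in the fit, 5 growth factor genes were lower and 5 higher, and 4 NOTCH and WNT genes were lower and 0 higher. Of all 13648 genes tested there, 1506 were lower and 1539 higher.

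Of 28 matrix glycoprotein genes tested 15 were higher and 8 lower (median 0.09); with the knockdown libraries in the fit 3 were higher and 3 lower. Of 19 collagen genes tested 13 were lower and 2 higher (median -0.22), yet COL1A1 was 1 of the 2. Matrix glycoproteins were called in 82.1% and collagens in 78.9%, beside 73.6% of all tested genes (37.3% higher and 36.3% lower). COL1A1 (gene ID 1277; chromosome 17, from 50184101 to 50201631), the alpha-1 chain of type I collagen, had 1169, 1061 and 1019 CPM in MAPK14-set controls and 331, 320.0 and 342 CPM in MAPK8/9-set controls (1.71 ± 0.05, 3.27-fold, adjusted p = 8.03e-13). Its partner chain COL1A2 was close in both sets, with 13141 ± 1069 CPM in MAPK14-set controls and 14573 ± 154 CPM in MAPK8/9-set controls (SD, n = 3 each; -0.15 ± 0.05, adjusted p = 0.0253), and its call was lost in limma-voom, with the length or GC trend removed (-0.04 and -0.06), in the joint fit and without MAPK14-set replicate 2 or MAPK8/9-set replicate 1 or 3. THBS1 (gene ID 7057; chromosome 15, from 39581079 to 39599466), thrombospondin 1, had 1842, 1403 and 1349.6 CPM in MAPK14-set controls and 4089.7, 4439.9 and 4413 CPM in MAPK8/9-set controls (-1.49 ± 0.15, adjusted p = 0.000732). Periostin (POSTN) was higher by 1.85 ± 0.05 and the small proteoglycans LUM (of the mesenchymal list) and DCN by 1.39 ± 0.04 and 1.03 ± 0.05, while tenascin C (TNC) fell by 0.91 ± 0.03. With the knockdown libraries in the fit, 3 collagens were lower and 1 higher, and with the length trend removed 10 were lower and 6 higher. The former had 1506 lower and 1539 higher among 13648 genes tested, and the latter 4763 lower and 4768 higher among 13094.

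Tested on counts, Müller glia markers were lower more often than higher in the MAPK14 set. Of 20 tested 11 were lower, 3 higher and 6 not past the threshold (median -0.25). Only 70% were called, against 73.6% of all tested genes (36.3% lower and 37.3% higher). SPP1 (gene ID 6696; chromosome 4, from 87975714 to 87983411), the secreted glycoprotein osteopontin, had 95.5, 97.4 and 102 CPM in MAPK14-set controls and 33.8, 33.9 and 33.5 CPM in MAPK8/9-set controls (1.54 ± 0.04, adjusted p = 2.15e-18). CAV1 (gene ID 857; chromosome 7, from 116525009 to 116561185) had 605, 568 and 546 CPM in MAPK14-set controls and 1001, 1008 and 1008 CPM in MAPK8/9-set controls (-0.81 ± 0.03, adjusted p = 4.8e-15). SOX2 fell by 1.02 ± 0.08, the hyaluronan receptor CD44 by 0.63 ± 0.03, CLU by 0.54 ± 0.04, SLC1A3 by 0.51 ± 0.06, PAX6 by 0.37 ± 0.07 and SOX9 by 0.29 ± 0.05, while CRYAB, a small heat shock protein, was higher by 0.48 ± 0.04 and VIM by 0.18 ± 0.03. GLUL (gene ID 2752; chromosome 1, from 182378098 to 182391790) had 252, 243 and 251 CPM in MAPK14-set controls and 254, 241 and 242 CPM in MAPK8/9-set controls. These overlap (0.02 ± 0.03, adjusted p = 0.61), but with the trend on transcript length or on GC content removed GLUL passed as higher (0.21 and 0.10), and on total counts its sign turned (-0.01). Of 21 gliosis genes 10 were higher and 10 lower (median 0.05). In the fit with the knockdown libraries 4 Müller glia markers were lower and 1 higher, beside 1506 lower and 1539 higher of 13648 genes tested.

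The kinases that the study targets were close in both control sets. MAPK14 (gene ID 1432; chromosome 6, from 36027808 to 36124214) had 104, 102 and 99.1 CPM in MAPK14-set controls and 110.2, 106 and 107 CPM in MAPK8/9-set controls, a difference of -0.08 ± 0.03 (adjusted p = 0.0413) whose call was lost in DESeq2, in the joint fit, with the length or GC trend removed, and without MAPK14-set replicate 2 or 3 or MAPK8/9-set replicate 1 or 3. MAPK8 (gene ID 5599; chromosome 10, from 48306677 to 48439360) had 35.1, 37.3 and 40.0 CPM in MAPK14-set controls and 35.4, 35.2 and 35.1 CPM in MAPK8/9-set controls and did not pass (0.09 ± 0.05, adjusted p = 0.113), although it did without MAPK14-set replicate 1 (0.13) and with the length or GC trend removed (0.23 and 0.22). MAPK9 averaged 88.1 ± 1.06 CPM in MAPK14-set controls and 81.4 ± 1.25 CPM in MAPK8/9-set controls (SD, n = 3 each; 0.11 ± 0.04, adjusted p = 0.00606). The pathway lists were called about as often as all tested genes (73.6%), at 73.9% for p38 and 73.7% for JNK. Of 23 p38 pathway genes 11 were higher and 6 lower (median 0.17). JNK pathway genes numbered 19, with 11 higher and 3 lower (median 0.20). With the knockdown libraries in the fit 8 p38 genes were higher and 3 lower, and 4 JNK genes higher and 1 lower. That fit had 1539 higher and 1506 lower among all 13648 genes tested. The p38-activated transcription factor MEF2C fell by 1.64 ± 0.05 on the log2 scale, while the kinase MKNK2 and the phosphatase DUSP10 were higher by 0.76 ± 0.04 and 0.88 ± 0.03.

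Ribosomal, mitochondrial and length-related differences ran through the whole comparison. Cytosolic ribosomal protein genes took 3.63% ± 0.0182 of counts in MAPK14-set controls and 3.07% ± 0.026 in MAPK8/9-set controls, and the 13 mitochondrially encoded genes 1.63% ± 0.0684 and 1.99% ± 0.0613 (SD, n = 3 each). Of 76 ribosomal protein genes 75 were higher and 0 lower in the MAPK14 set, none by 2-fold (median 0.29), of 42 nuclear genes of oxidative phosphorylation 34 were higher and 5 lower (median 0.32), and of the 13 mitochondrial genes 10 were lower and 0 higher (median -0.45). These lists were called in 98.7%, 92.9% and 76.9%. The last is near the 73.6% of all tested genes, of which 37.3% were higher and 36.3% lower. RPS2 averaged 1933 ± 13 CPM in MAPK14-set controls and 1518 ± 42.8 CPM in MAPK8/9-set controls, and MT-CYTB 894 ± 44.5 and 1572 ± 74.5 CPM (SD, n = 3 each). Fold changes also followed transcript length: in 5 equal bins of effective length the median was 0.22 in the shortest bin and -0.19 in the longest. In 5 bins of GC content it was -0.13 in the lowest bin and 0.19 in the highest. With the length trend removed, 31 ribosomal genes were higher and 19 lower (median 0.03), 18 oxidative phosphorylation genes higher and 8 lower, and all 13 mitochondrial genes lower; with the knockdown libraries in the fit 2, 5 and 1 genes of these lists passed. With the length trend removed, 7 of 7 metallothioneins, 26 stress response genes, 18 NRF2 targets, 19 cytokine and NF-kB genes and 19 hypoxia targets were higher, 1 hypoxia target was lower, and 3 heat shock genes were higher and 10 lower. With the knockdown libraries in the fit, 7 genes of the metallothionein list, 20 stress response genes and 14 NRF2 targets were higher. So were 16 cytokine and NF-kB genes and 20 AP-1 genes. Lower in that fit were 1 stress response gene, 1 cytokine or NF-kB gene and 2 AP-1 genes. Of heat shock genes 9 were lower and 3 higher. Among all 13648 genes tested in that fit 1539 were higher and 1506 lower. Ribosomal genes share reads with pseudogenes, and no source used here gives the library strand.

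The 2 control sets can also be placed beside the knockdown groups, on a scale fitted to all 12 libraries. Each control set enters its own knockdown comparison, so the groups are given as levels only. The genes given were drawn from those that differed between the control sets, so the gap between the 2 control groups was fixed by that choice. GDF15 averaged 98.3 ± 20 CPM in siMAPK14 and 95.1 ± 8.47 CPM in its controls, and 79.8 ± 32.3 CPM in siMAPK8_9 and 1.43 ± 0.343 CPM in its controls (SD, n = 3 each). ARG2 averaged 25.2 ± 1.73 CPM in siMAPK14 and 22.1 ± 3.80 CPM in its controls, and 70.4 ± 15.4 CPM in siMAPK8_9 and 2.18 ± 0.373 CPM in its controls (SD, n = 3 each). DUSP1 had 271, 262 and 299 CPM in siMAPK14 libraries, 259, 289 and 270.4 CPM in their controls, 305, 313 and 336 CPM in siMAPK8_9 libraries, and 42.6, 44.0 and 43.9 CPM in theirs. For these 3 genes the MAPK8/9-set controls were the group that stood apart, at the low end. That did not hold for CXCL6, which was highest in the MAPK14-set controls. It averaged 5.98 ± 2.97 CPM in siMAPK14 and 22.1 ± 0.866 CPM in its controls, and 9.11 ± 7.06 CPM in siMAPK8_9 and 2.38 ± 0.242 CPM in its controls (SD, n = 3 each). Replicate 2 of siMAPK14, at 2.56 CPM, lay within the range of the MAPK8/9-set controls. How many genes follow either pattern was not tested.

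For NTRK3 and LSAMP the MAPK8/9-set controls stood apart at the high end. NTRK3 averaged 4.68 ± 1.69 CPM in siMAPK14 and 2.53 ± 0.157 CPM in its controls, and 3.70 ± 1.61 CPM in siMAPK8_9 and 18.8 ± 1.05 CPM in its controls (SD, n = 3 each). LSAMP had 1.82, 4.91 and 2.73 CPM in siMAPK14 libraries, 2.69, 2.62 and 3.10 CPM in their controls, 0.713, 2.81 and 2.53 CPM in siMAPK8_9 libraries, and 21.6, 21.1 and 21.7 CPM in theirs. MGP followed the experiment instead. Its average was 12.5 ± 2.61 CPM in siMAPK14 and 9.80 ± 0.982 CPM in its controls, and 69.7 ± 28.9 CPM in siMAPK8_9 and 62.2 ± 1.38 CPM in its controls (SD, n = 3 each). COL1A1 was highest in the MAPK14-set controls, with 102 ± 18.8 CPM in siMAPK14 and 841 ± 62.7 CPM in its controls, and 94.4 ± 53.4 CPM in siMAPK8_9 and 259 ± 8.32 CPM in its controls (SD, n = 3 each). The mitochondrial share of counts was 32.1% to 45.0% in siMAPK14 and 8.93% to 36.9% in siMAPK8_9, against 1.56% to 2.03% in the controls, and its part in these levels was not tested.

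**Figure D5:**
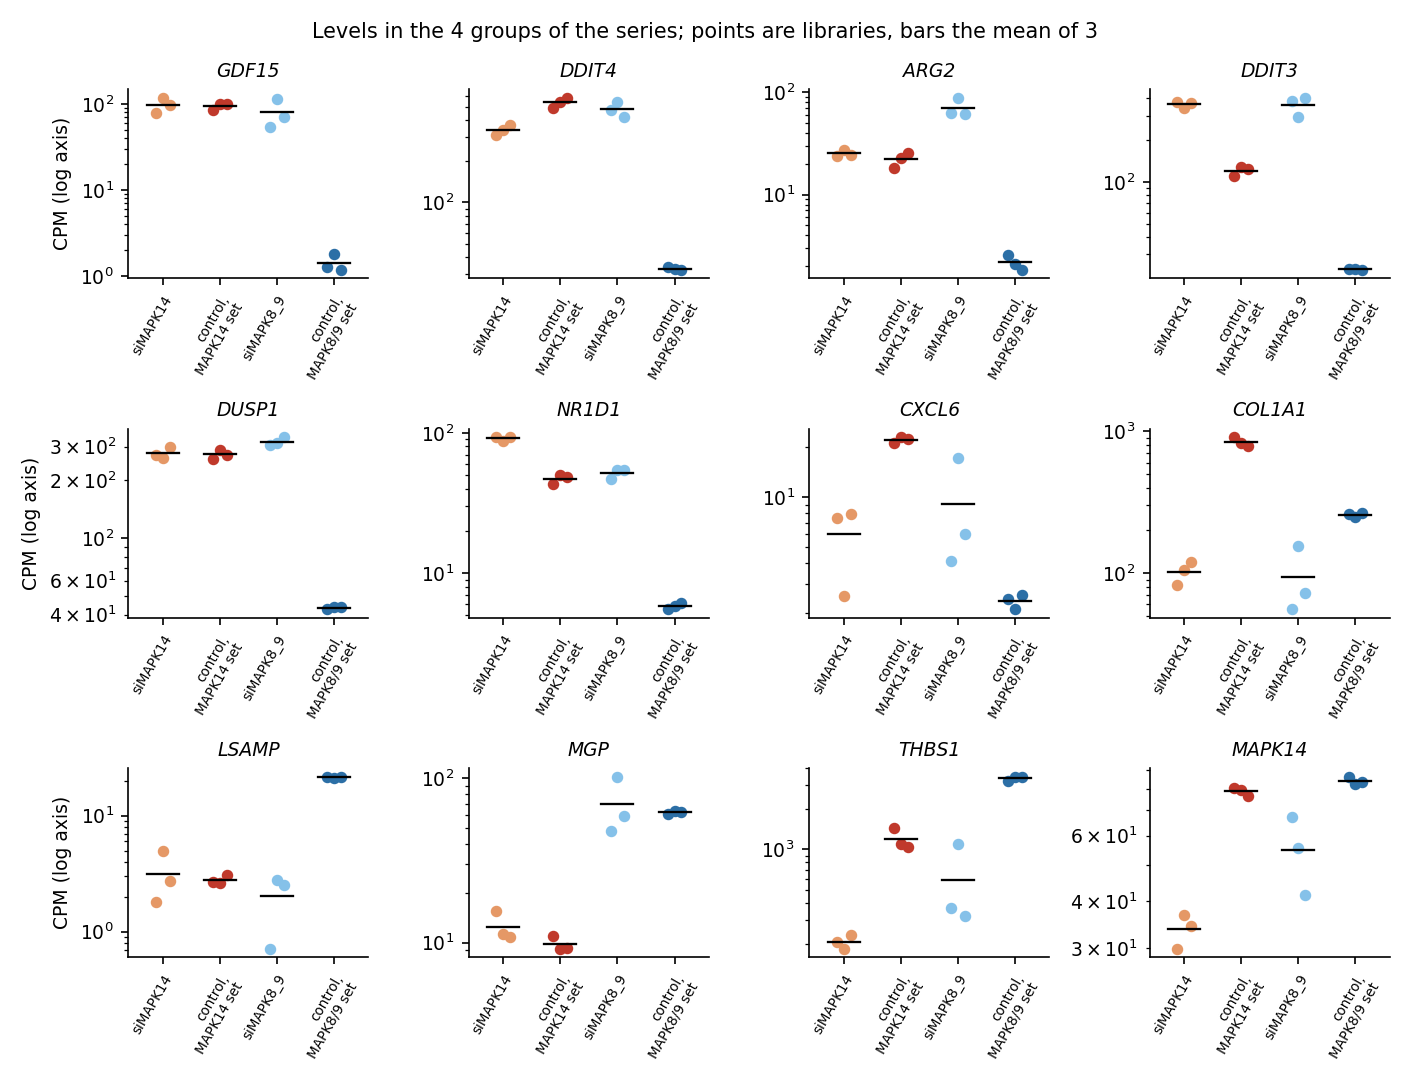
CPM (log axis, 12-library scale) of 12 genes in siMAPK14, MAPK14-set controls, siMAPK8_9 and MAPK8/9-set controls; points are libraries and bars the mean of 3. The MAPK8/9-set controls stand alone at the low end for GDF15, DDIT4, ARG2, DDIT3, DUSP1 and NR1D1 and at the high end for LSAMP, while MGP separates the experiments and MAPK14 is lowest in siMAPK14. CXCL6 is highest in the MAPK14-set controls.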

How the data were processed

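Polyadenylated RNA was captured with oligo(dT) beads from TRIzol extracts and primed with random hexamers, per the labels' protocols; the build GRCh38.p14 and the tools RSEM 1.3.1, Bowtie2 2.3.4.3 and DESeq2 1.4.5 come from the submitters' processing notes, which give no role, and annotation and strand are not given in the sources used here. The authors deposited 1 table per experiment with expected counts (RSEM's estimated fragments, not normalized), FPKM and TPM; TPM serve as levels without a test because the authors normalized each table separately, and count over the deposited FPKM gave each gene's effective length. Another 24 columns of per-library values were left aside. Each table listed genes that the other lacked, 846 and 394, with at most 33.2 counts in a control library.

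Counts of the 6 control libraries were rounded and fitted in R 4.3.3 with edgeR 4.0.16 (filterByExpr with minimum count 10 and minimum total 15, TMM, robust quasi-likelihood F-test, Benjamini-Hochberg over 13409 genes, threshold 0.05), after the fit had been tested on simulated data. 1 count equals 0.0317 to 0.0322 CPM, and the limit for a gene with no count is 3 counts, 0.0952 to 0.0966 CPM, for counting error only. Genes are named by the 10 highest and 10 lowest fold changes with at least 10 CPM on average and no overlap, the Müller glia list, the targeted kinases, the 20 highest TPM, and for each of 40 lists up to 3 genes by adjusted p and up to 3 by TPM; HMOX1, a member of the NRF2 list, is named by its gliosis rank, and genes of the closing observations were chosen after their values were seen. The members and lists were chosen with earlier results of these data known. Alternatives were RLE, upper-quartile and total-count scaling, no filter or a mean of 1 CPM, DESeq2 1.42.0, limma-voom (limma 3.58.1), a minimum fold of 1.2, a joint fit of 12 libraries, a replicate block, leaving out each library or the mitochondrial genes, detection at 0.5 or 5 TPM, nuclear-encoded counts as denominator, and removal of a lowess trend (span 0.3) on transcript length or, added after seeing the data, on GC content of the longest transcript. Coordinates are RefSeq's, GRCh38.p14.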

Additional observations from a re-analysis of the deposited data

How the results depend on the processing

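The count of 9872 genes past the threshold lay between 9154 and 10152 under other scalings, filters, tools, trend removals and without mitochondrial genes, and between 9348 and 9883 when each library was left out. It was 5589 (2857 higher, 2732 lower) at a minimum fold of 1.2, and 3045 (1539 higher, 1506 lower; 841 at least 2-fold apart) in the joint fit of 12 libraries, whose cause was not tested; the spread there also comes from the knockdown libraries. The count of genes at least 2-fold apart was 1387, and 1002 with a filter at 1 CPM. On total counts 4643 genes were higher and 5221 lower. Of the 9872 genes, 107 passed in the opposite direction with the length trend removed and 13 with the GC trend removed. GLUL had -0.012 on total counts, and MAPK11 (0.14) had -0.049 with the GC trend removed; neither passed there. Of 145 genes refitted under 19 alternatives, 103 kept direction and side of the threshold in all of them. 36 lost their call in the joint fit and 18 at a minimum fold of 1.2. The replicate numbers did not pair the libraries: deviations of same-numbered libraries correlated at 0.015, 0.058 and 0.003, and the fit with the replicate number as a block called 9897 genes, 9809 of them shared and in the same direction. Ribosomal shares over nuclear-encoded counts were 3.69% in MAPK14-set controls and 3.13% in MAPK8/9-set controls. Genes near 0.1 CPM rest on about 3 counts in a library, so depth limits what can be said of them.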

Other observations

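Genes of the circadian clock, picked after their values were seen and so without support from a test, differed between the control sets. NR1D1, the clock repressor named above, had 55.3, 64.2 and 62.9 CPM in MAPK14-set controls and 7.05, 7.43 and 7.89 CPM in MAPK8/9-set controls. The period genes were higher in the MAPK14 set too: PER1 averaged 17 ± 1.05 CPM in MAPK14-set controls and 1.80 ± 0.318 CPM in MAPK8/9-set controls, PER2 3.59 ± 0.5 and 0.882 ± 0.0553 CPM, and PER3 30.9 ± 0.770 and 10.7 ± 0.506 CPM (SD, n = 3 each). The clock-controlled factors TEF, DBP, CIART and BHLHE40 and the repressor NR1D2 had log2 fold changes of 2.76 ± 0.15, 1.65 ± 0.18, 1.27 ± 0.09, 2.74 ± 0.09 and 1.38 ± 0.04. The activators ran the other way, with BMAL1 at 27.1 ± 0.994 CPM in MAPK14-set controls and 44.0 ± 0.724 CPM in MAPK8/9-set controls and CLOCK at 43.8 ± 1.13 and 63.1 ± 3.14 CPM (SD, n = 3 each). CRY1 and CRY2 had log2 fold changes of 0.16 ± 0.05 and 0.71 ± 0.07. The labels used here do not give a time of day for any library.

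The p53 target list, which includes GDF15, was called in 85.7% and the interferon-stimulated list in 71.1%, against 73.6% of all tested genes (37.3% higher and 36.3% lower). Of 21 p53 targets 12 were higher and 6 lower in the MAPK14 set (median 0.33), and 7 and 3 with the knockdown libraries in the fit. BBC3, the p53 target PUMA, averaged 8.41 ± 1.15 CPM in MAPK14-set controls and 1.87 ± 0.105 CPM in MAPK8/9-set controls (SD, n = 3 each). The pro-apoptotic BAX was higher by 0.59 ± 0.04 and GADD45A by 1.38 ± 0.06. Of 38 interferon-stimulated genes 8 were higher and 19 lower (median -0.14), and 3 and 8 with the knockdown libraries in the fit. In the latter fit 1539 of all 13648 genes tested were higher and 1506 lower. ISG15 averaged 65.8 ± 2.56 CPM in MAPK14-set controls and 35.4 ± 2.8 CPM in MAPK8/9-set controls, and HERC6 25.9 ± 0.456 and 50.8 ± 4 CPM (SD, n = 3 each).

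A few genes were close to absent in 1 set. SFRP4, a secreted WNT antagonist, had 0.129, 0.130 and 0.0977 CPM in MAPK14-set controls, and 7.81, 8.75 and 8.62 CPM in MAPK8/9-set controls. XKR4 had 0.839, 0.617 and 0.716 CPM in MAPK14-set controls and 16.6, 18.2 and 17.3 CPM in MAPK8/9-set controls.

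The largest fitted log2 fold change among genes with a mean of at least 2 CPM, 7.27 ± 1.07 for SULT1A4, rests on how counts were divided between near-identical copies. SULT1A4 had 23.9, 18.6 and 7.85 CPM in MAPK14-set controls and 0.0944, 0.157 and 0.0632 CPM in MAPK8/9-set controls. Its copy SULT1A3 had 0, 8.6 and 18.4 CPM in MAPK14-set controls and 19.5, 20.7 and 21.6 CPM in MAPK8/9-set controls. The sums of both were 23.9, 27.2 and 26.2 CPM in MAPK14-set controls and 19.5, 20.9 and 21.7 CPM in MAPK8/9-set controls.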
